A study of Danio rerio with 6 samples.

Results

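The glycolytic enzymes studied here are the products of 9 zebrafish genes: gpia, aldocb, tpi1b, gapdh, pgk1, eno1a, pkma, ldha and ldhba. Between them they carry sugar phosphate from the isomerase step down to pyruvate and on to lactate. They were found by gene symbol in the annotation of the array, every probe set listed with 1 of these symbols was taken, and the muscle enolase eno3 was left out. This gave 11 probe sets of the 15502 tested, because aldocb and pgk1 have 2 each. The named probe sets of the array covered 8793 genes.

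RNA came from AB wild-type zebrafish at 52 hours post fertilization (hpf). One group of 3 pools held retina, and the other group of 3 pools held retina with the RPE (retinal pigment epithelium, a sheet of pigmented cells that faces the photoreceptors) left on. Each pool combined 10 dissected tissues, the labels call the pools biological replicates, and no treatment or mutation separates the groups. From each pool 33 ng of total RNA was labelled in 2 cycles of amplification and read on an Affymetrix zebrafish array. The comparison asks what the epithelium adds to the retina. The study went on to estimate RPE levels by deducting a retinal share scaled by RNA yield, and that deduction was not made here because the yields were not used here.

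Glycolysis turns glucose into pyruvate in the cytosol and gains a little ATP without oxygen. Vertebrate photoreceptors are known for aerobic glycolysis, in which much of the pyruvate becomes lactate although oxygen is present. The RPE stands between the choroidal blood and the photoreceptors, passes glucose inwards and can burn the lactate that the retina releases. Zebrafish carry duplicate copies of many of these genes, so a step is often shared by paralogs.

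The labels were checked first on marker genes. All 9 measured RPE markers of 13 listed rose with RPE attached. The brightest probe set of rpe65a, which remakes the chromophore of the visual pigments, read 67.5, 66.1 and 87.8 in retina and 1138, 797 and 785 with RPE. The melanin gene dct read 194, 173 and 200.3 in retina and 1280, 1355 and 982 with RPE. Of 29 measured retina markers, 8 fell, 2 rose and 19 were not called. Among all named genes 17.0% were called lower and 19.4% higher. In the brightest of 3 equal classes of probe sets 28.7% were called lower and 11.2% higher. The photoreceptor factor crx fell from 3931 ± 282 to 2747 ± 257, and atoh7, needed for ganglion cells, fell from 749.5 ± 125 to 329 ± 7.82 (SD, n = 3). In a pool of whole tissue, fewer cells of a type and less RNA per cell cannot be told apart. The same amount of total RNA was labelled from every pool, so RNA of the attached tissue takes the place of retinal RNA. The share of retinal transcripts is then smaller with RPE even where retinal cells are unchanged. The part of this smaller share in the lower readings, here and below, was not tested. Array medians were 68.7 to 69.6 in retina and 73.2 to 74.5 with RPE, and the number of arrays limits the precision.

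Of the 11 glycolytic probe sets 3 passed the test between the groups, where 34.5% of all probe sets did. With RPE attached, the aldolase gene aldocb rose 1.42-fold by its brighter probe set and the triose phosphate isomerase gene tpi1b rose 1.30-fold, whereas the pyruvate kinase gene pkma was 1.21-fold lower. The other 8 probe sets, of gpia, gapdh, pgk1, eno1a, ldha and ldhba and the dimmer probe set of aldocb, did not pass the test. Folds over all 11 ran from 0.829 to 1.42. A probe set is called when its Benjamini-Hochberg adjusted p over all 15502 probe sets, from limma on log2 intensities, is under 0.05.

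These counts have to be read against the whole array. Of all tested probe sets 19.0% were called higher and 15.6% lower, so 2 of 11 higher and 1 of 11 lower are near what the array showed at large. The groups did not overlap in 4 of the 11 glycolytic probe sets, 3 higher and 1 lower, against 49.5% of all probe sets. At an unadjusted p under 0.05 (limma) there were 5. The share of all probe sets at that threshold was not counted, so nothing is read from this number. The median log2 change was 0.21 over the glycolytic probe sets and 0.04 over all, and the median size of change regardless of sign was 0.24 and 0.21. Centring the arrays on ribosomal protein genes raised the median of all probe sets to 0.14. It also turned the split of all calls from 2938 higher and 2417 lower into 3706 higher and 1406 lower, while cyclic loess gave 2175 and 2327.

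**Figure D1:**
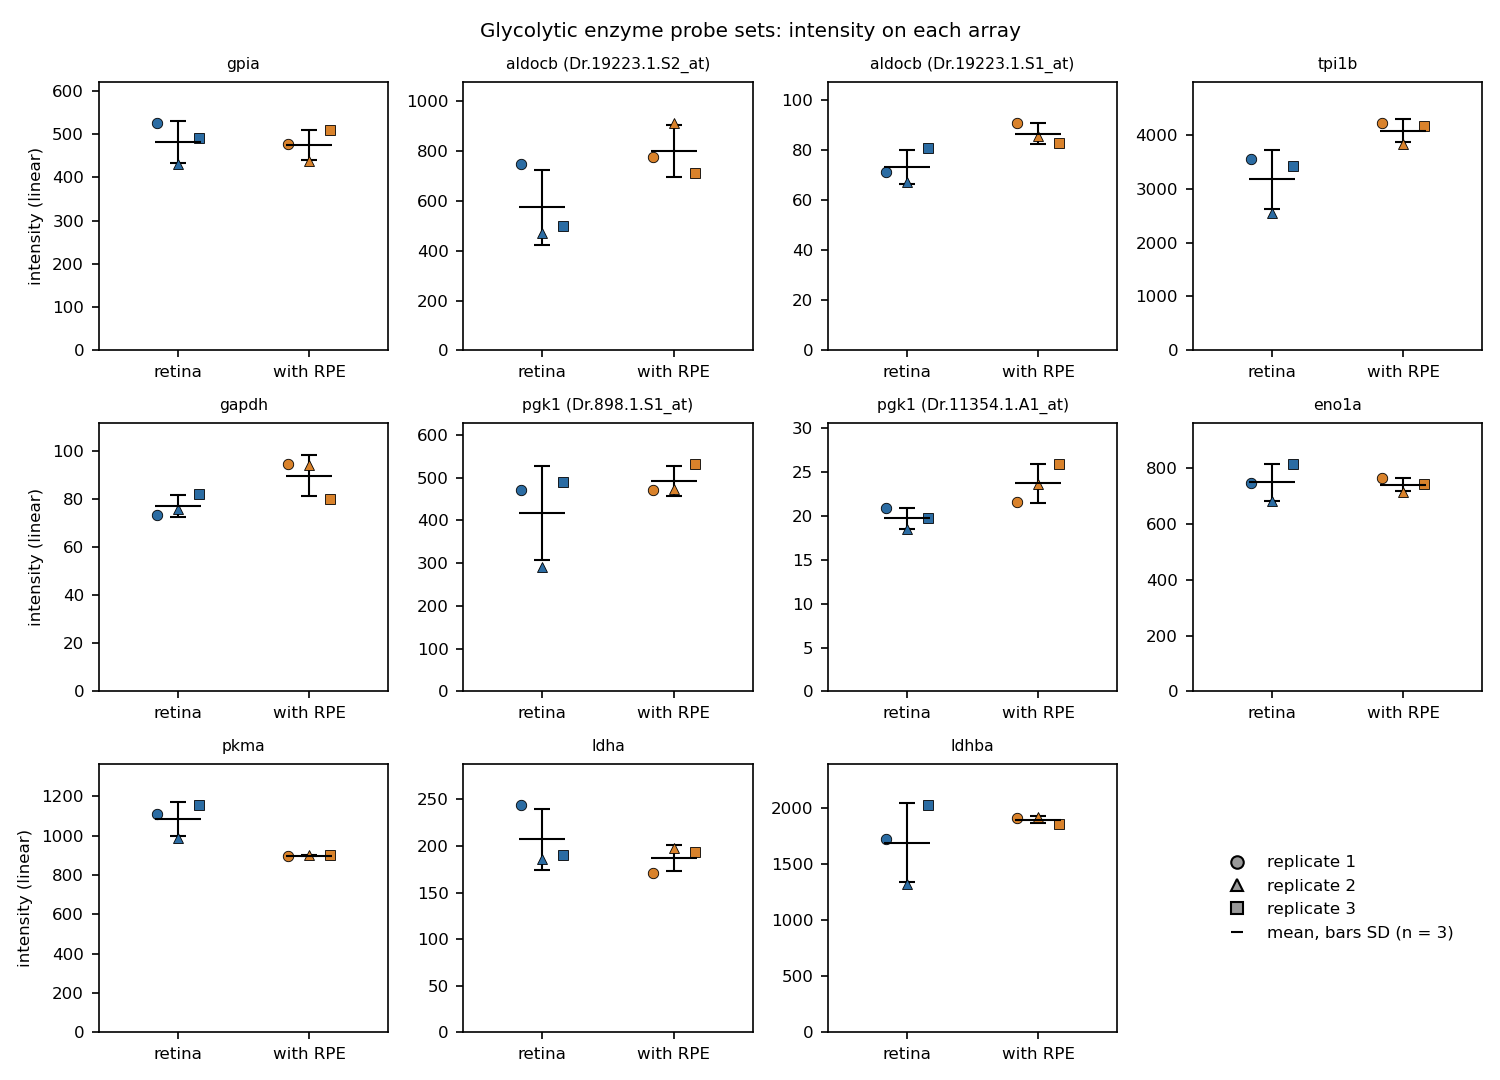
Deposited linear intensity of each of the 11 glycolytic probe sets on each array, with 1 panel per probe set; symbols mark the replicate, and the horizontal bar with error bars gives the mean and SD of 3 pools. The tpi1b panel shows the groups apart with RPE higher, the pkma panel shows them apart with RPE lower and nearly level at 896 to 902, and the panel of the brighter aldocb probe set, Dr.19223.1.S2_at, shows retina replicate 1 among the arrays with RPE.

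Glucose phosphate isomerase, which turns glucose phosphate into fructose phosphate, is encoded by gpia (probe set Dr.11244.1.S1_at). Its intensity was 527, 430.4 and 491 in retina and 478, 439 and 509 with RPE. The groups overlapped, with the lowest and the highest array both among the retina pools. The log2 change was -0.02 ± 0.103 (SE) and the fold 0.987 with a 95% interval of 0.842 to 1.16 (limma, adjusted p = 0.896). The sign of this change turned positive under cyclic loess, quantile normalization and ribosomal centring. The paralog gpib rose from 31.0 ± 2.50 to 43.6 ± 3.46 (SD, n = 3), a log2 change of 0.49 ± 0.0982.

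Aldolase splits the doubly phosphorylated fructose into a pair of triose phosphates, and aldocb encodes the brain-type aldolase C. Its brighter probe set, Dr.19223.1.S2_at, read 749, 473 and 500.5 in retina and 776, 916 and 714 with RPE. Retina replicate 1 lay within the range of the arrays with RPE, so the groups overlapped although the means were 574 ± 152 and 802 ± 103 (SD, n = 3). This gave a log2 change of 0.50 ± 0.168 (SE), a fold of 1.42 with a 95% interval of 1.09 to 1.84, and an adjusted p of 0.0414 (limma). The dimmer probe set, Dr.19223.1.S1_at, read 71.4, 67.4 and 80.7 in retina and 91.0, 85.6 and 83.0 with RPE. All 3 arrays with RPE were above all 3 retina arrays there, and the log2 change of 0.24 ± 0.0948 had an adjusted p of 0.0706 (limma). Of the aldolase paralogs, aldoaa rose from 1877 ± 277 to 2321 ± 69.2 and aldoab, of the muscle-type aldolase A, from 45.1 ± 0.717 to 65.3 ± 8.36 (SD, n = 3). The other aldolase C copy, aldoca, changed by -0.10 ± 0.0879 on the log2 scale and was not called.

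Triose phosphate isomerase keeps the pair of trioses in balance so that both can go down the pathway. Its gene tpi1b (Dr.4157.1.S1_at) read 3556, 2543 and 3419 in retina and 4224, 3834 and 4163 with RPE. Every array with RPE was above every retina array, and retina replicate 2 was far below the other retina pools. The means were 3173 ± 549.8 and 4074 ± 209.7 (SD, n = 3). The log2 change was 0.38 ± 0.127 (SE), the fold 1.30 with a 95% interval of 1.07 to 1.58, and the adjusted p 0.0446 (limma). The paralog tpi1a read 215 ± 22.4 in retina and 241 ± 4.78 with RPE, a log2 change of 0.17 ± 0.0964 that was not called.

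Glyceraldehyde phosphate dehydrogenase oxidises the triose and makes NADH, and its gene is often taken as a constant reference. For gapdh (Dr.917.1.S1_at) the retina arrays read 73.4, 76.0 and 82.3 and the arrays with RPE 94.9, 94.4 and 79.9. Retina with RPE replicate 3 lay below the highest retina array, and the other two arrays with RPE lay above all retina arrays. gapdh thus changed by 0.21 ± 0.0982 on the log2 scale, a fold of 1.16 with a 95% interval of 0.996 to 1.35 and an adjusted p of 0.117 (limma). The paralog gapdhs, whose mammalian counterpart is the sperm form, read 6947 ± 892 and 7380 ± 427 (SD, n = 3), a log2 change of 0.09 ± 0.107 that was not called. The control probe sets of the array that are named after GAPDH are listed with gapdhs, not with gapdh, and stayed out of the fit. Their log2 differences were 0.03, 0.15 and 0.19 at the 3', 5' and middle part of the transcript (exact permutation test, 2-sided, p = 0.8, 0.6 and 0.5).

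Phosphoglycerate kinase carries out the first ATP-making step, and pgk1 encodes it. The brighter probe set, Dr.898.1.S1_at, read 471, 291 and 489 in retina and 471, 474 and 533 with RPE. The groups overlapped, and retina replicate 2 stood well below the other 5 arrays. The log2 change was 0.28 ± 0.176, the fold 1.21 with a 95% interval of 0.923 to 1.59, and the adjusted p 0.248 (limma). The dim probe set Dr.11354.1.A1_at read 20.9, 18.5 and 19.8 in retina and 21.6, 23.6 and 26.0 with RPE, without overlap, and its change of 0.26 ± 0.0973 had an adjusted p of 0.0593 (limma). The next enzyme, phosphoglycerate mutase, has no member among the 9 genes: pgam1a rose by 0.31 ± 0.0938 and the muscle form pgam2 by 0.36 ± 0.0822 on the log2 scale, while pgam1b fell from 323 ± 11.7 to 213 ± 23.5 (SD, n = 3), a log2 change of -0.61 ± 0.0984.

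Enolase makes phosphoenolpyruvate, and eno1a encodes the form found in most tissues. Its probe set Dr.4724.1.S1_at read 749, 684 and 818 in retina and 764, 717 and 743 with RPE. All 3 arrays with RPE lay inside the retina range. Its log2 change was -0.01 ± 0.0923 and the fold 0.991 with a 95% interval of 0.859 to 1.14 (limma, adjusted p = 0.922), and its sign also turned under cyclic loess, quantile normalization and ribosomal centring. The paralogs eno1b and eno4 changed by 0.05 ± 0.0927 and 0.06 ± 0.0859 and were not called.

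Pyruvate kinase makes pyruvate and ATP at the end of the pathway, and pkma encodes a muscle and brain type. The retina arrays of Dr.7952.1.S1_at read 1110.3, 991 and 1158 and the arrays with RPE 896, 902 and 899.6. Every array with RPE was below every retina array, and the 3 arrays with RPE lay close together. The means were 1086 ± 86.3 and 899 ± 3.22 (SD, n = 3). The log2 change was -0.27 ± 0.0886 (SE), the fold 0.829 with a 95% interval of 0.723 to 0.951, and the adjusted p 0.0395 (limma). It was not called after cyclic loess (-0.13, adjusted p = 0.295), quantile normalization (-0.10, 0.414) or ribosomal centring (-0.18, 0.228), all with limma. The liver and red cell form pklr changed by 0.03 ± 0.0927 and was not called.

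Lactate dehydrogenase interconverts pyruvate and lactate. In mammals the A subunit prevails in tissues that make lactate and the B subunit in tissues that use it. For ldha (Dr.4212.1.S1_at) the retina arrays read 245, 186 and 190.4 and the arrays with RPE 171, 198 and 193. The groups overlapped, with retina replicate 1 high and retina with RPE replicate 1 low. Its log2 change was -0.14 ± 0.119 and the fold 0.910 with a 95% interval of 0.757 to 1.09 (limma, adjusted p = 0.397). For ldhba (Dr.729.1.S1_at) the retina arrays read 1718, 1321 and 2027 and the arrays with RPE 1906, 1914 and 1854. The arrays with RPE lay inside the wide retina range. For ldhba this was a log2 change of 0.19 ± 0.138 and a fold of 1.14 with a 95% interval of 0.918 to 1.41 (limma, adjusted p = 0.324). The paralog ldhbb changed by -0.39 ± 0.137 with an adjusted p of 0.0513 (limma), and ldhd, an enzyme of D-lactate, by 0.15 ± 0.0790, and neither was called.

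**Figure D2:**
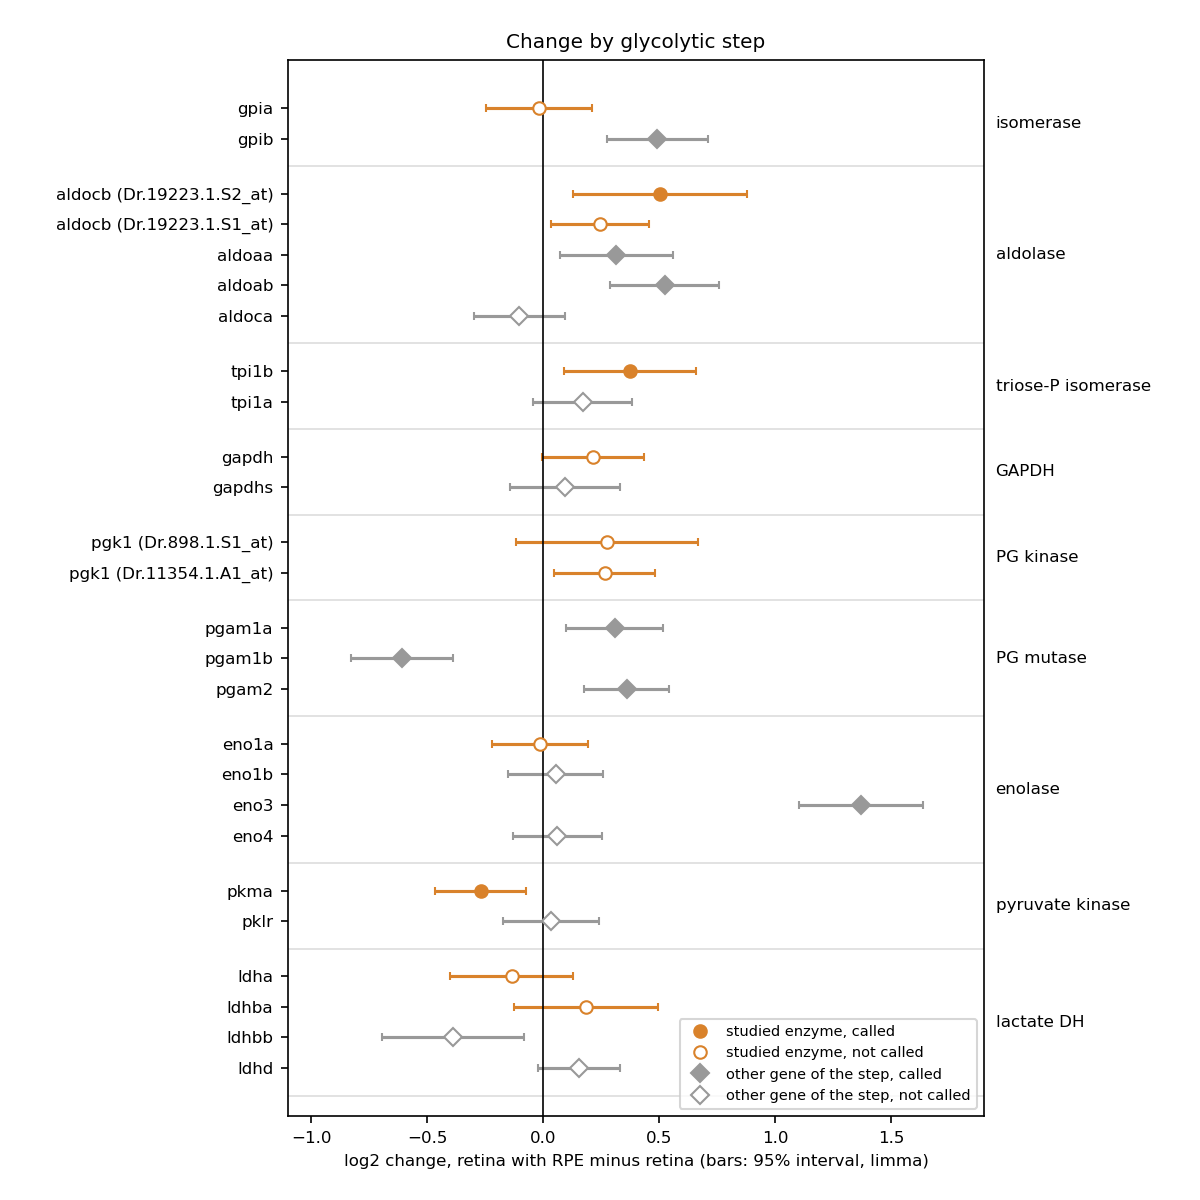
Log2 change of each probe set of the studied enzymes (orange circles) and of the brightest probe set of the other genes of each step (grey diamonds), retina with RPE minus retina, ordered from the isomerase to lactate dehydrogenase; bars are 95% intervals of limma and filled symbols are called. Orange circles lie between -0.27 (pkma) and 0.50 (aldocb), and of the grey diamonds pgam1b at -0.61, ldhbb at -0.39, aldoab at 0.52 and eno3 at 1.37 lie outside that range.

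The muscle enolase eno3 was no member, and it stood apart from eno1a. It read 83.4, 81.6 and 110.3 in retina and 246, 227 and 232 with RPE, a rise of 2.59-fold with a 95% interval of 2.15 to 3.11 (limma, adjusted p = 0.00011). Of 19 measured skeletal muscle markers other than eno3, pgam2 and aldoab, 7 rose, none fell and 12 were not called. Among all named genes 19.4% were called higher and 17.0% lower. The markers that rose included the myoglobin gene mb, from 98.9 to 317, and the actin gene acta1a, from 37.2 to 66.8. The mean log2 level of these 19 markers was 5.42 to 5.48 in retina and 5.73 to 5.92 with RPE. The creatine kinase gene ckma changed by 0.23 and the myosin light chain gene mylpfa by 0.25, and neither was called. The part of muscle RNA in the changes of eno3, pgam2 and aldoab was not tested.

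Differences between paralogs were compared directly, as the log2 ratio of the brightest probe sets of both genes on each array. In all 10 pairs were compared. Exact permutation tests of 3 against 3 arrays (2-sided) cannot go below p = 0.1. The ratios of the groups did not overlap in 3 pairs, and each of these reached an exact permutation p of 0.1 (adjusted over the 10 pairs 0.333). In these pairs the log2 change of eno1a differed from that of eno3 by -1.38, that of gpia differed from gpib by -0.51, and that of tpi1b from tpi1a by 0.21. The difference of ldha from ldhba was -0.32 (exact permutation p = 0.3). The difference of aldocb from aldoca was 0.61 (exact permutation p = 0.2). None passed the adjustment, and how far a probe set also reads its paralog was not tested.

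The 6 arrays did not vary alike over these genes. Retina replicate 2 lay below the retina mean in 11 of 11 glycolytic probe sets, where 47.5% of all probe sets and 51.8% of the brightest of 3 equal classes did so. It was the lowest retina array in 10 of the 11, gapdh being the exception, against 31.3% of all probe sets. Its median deviation from the retina mean was -0.14 over the glycolytic probe sets and 0.01 over all, on the log2 scale. Retina replicates 1 and 3 deviated by 0.08 and 0.10, and the arrays with RPE by 0.01, -0.00 and 0.00. The within-group SD was larger in retina in 9 of the 11, with a median of 0.148 in retina and 0.101 with RPE. For all probe sets these medians were 0.116 and 0.0965. In the brightest of 3 equal classes, which held 8 of the 11, they were 0.155 and 0.0904. The share of all probe sets with the larger SD in retina was not counted.

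**Figure D3:**
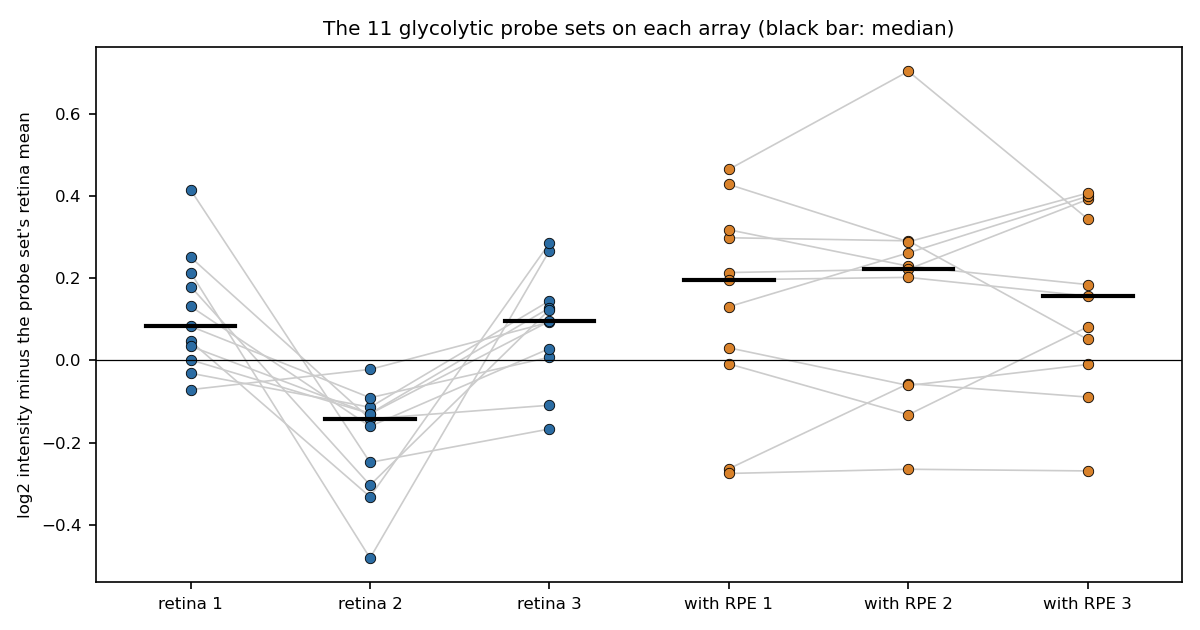
Log2 intensity of the 11 glycolytic probe sets on each array minus the retina mean of the same probe set; each point is 1 probe set and the black bar is the median of the array. Retina replicate 2 lies below 0 in all 11, and the arrays with RPE spread from the pkma points near -0.27 to the aldocb points up to 0.70.

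Each of the 3 calls was lost in some fits with 1 array left out. Such fits rest on fewer arrays, and over all probe sets they called 1805 to 2725 higher, against 2938 with all arrays. The rise of aldocb stayed called without retina replicate 1, where the log2 change was 0.71 (limma, adjusted p = 0.00373), and was lost when any other array was left out, with adjusted p from 0.0633 to 0.155. The rise of tpi1b stayed called without retina replicate 1 or 3. It was lost without retina replicate 2, where the change was 0.22 in place of 0.38 (limma, adjusted p = 0.104), and without any 1 array with RPE (adjusted p from 0.0783 to 0.125). The lower level of pkma stayed called without retina replicate 2 (-0.33, adjusted p = 0.0205) and was lost without any other array (0.0913 to 0.106, limma). Without any 1 array with RPE the log2 change of pkma was still -0.27. Over the 15 alternative settings aldocb was called in 8, tpi1b in 9 and pkma in 4, with the sign kept in all 15. The kept sign says little. A replicate block, the dim filter, trend and robust moderation, the 0.01 threshold and kept controls leave the log2 change as it was. The sign was also kept in all 15 for gapdh, the brighter pgk1 probe set, ldha and ldhba, which were not called in the main fit.

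**Figure D4:**
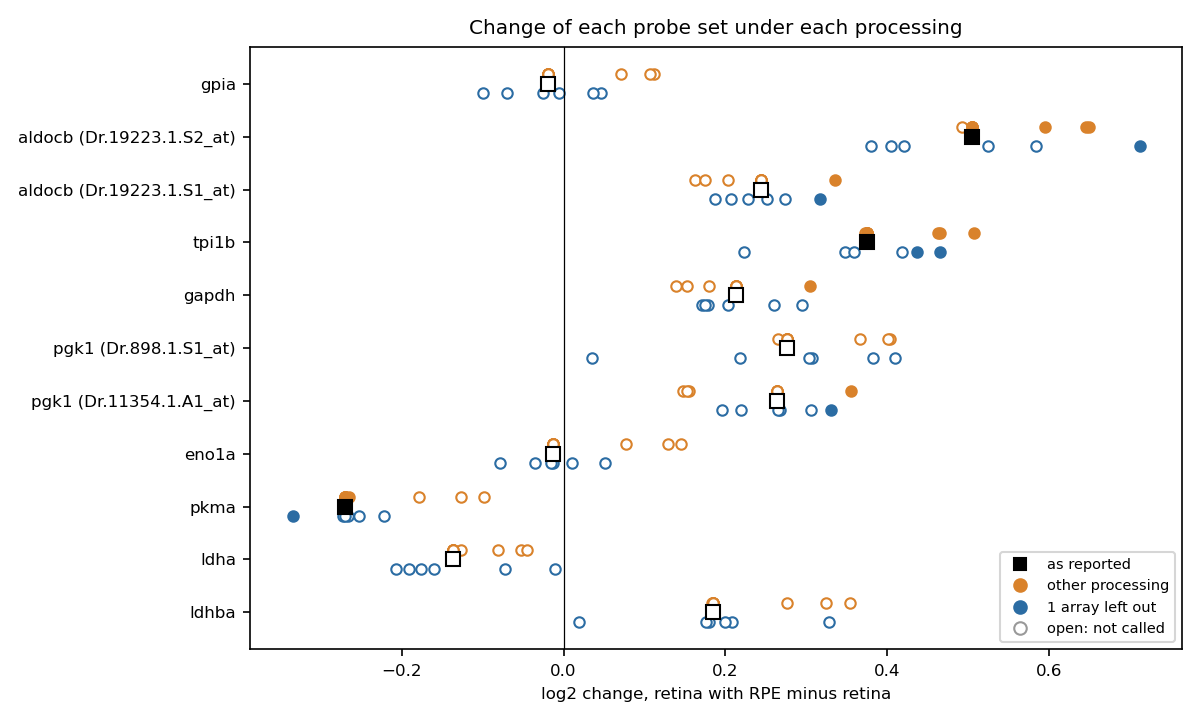
Log2 change of each glycolytic probe set as reported (black square), under other processing (orange) and with 1 array left out (blue); open symbols are not called. The points of aldocb and tpi1b all lie above 0 and those of pkma all below 0. So do those of gapdh, pgk1 and ldhba (above) and ldha (below), none of which was called as reported. The points of eno1a and gpia lie on both sides.

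Changes over the whole array also differed with brightness. When all probe sets were split by mean log2 level into 3 classes of equal size, 8 of the 11 glycolytic probe sets were in the bright class, 2 in the middle class and 1, the dim pgk1 probe set, in the dim class. The median log2 change of all probe sets was 0.11 in the dim class, 0.10 in the middle class and -0.12 in the bright class. In the bright class 28.7% were called lower and 11.2% higher, and in the dim class 4.04% and 19.6%. The upper quartile of the intensities was 285 to 293 in retina and 265 to 271 with RPE. The part of this difference between arrays in the changes of the glycolytic enzymes was not tested.

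The steps around the pathway were followed in 7 gene lists, with each gene represented by its brightest probe set. Of 149 listed genes 89 were measured, 22 rose and 15 fell, against 19.4% higher and 17.0% lower among all named genes. The counts of each list below have to be read against the same shares. The median log2 change was 0.06 over the lists and 0.04 over all named genes. Of the 37 called, 21 stayed called whichever array was left out, 9 higher and 12 lower. Most were lost without retina with RPE replicate 3, namely 14, and fewest without retina replicate 3, namely 6. Restricting each gene to probe sets marked S in their identifiers, a choice made after seeing the data, left 56 genes with 10 higher and 6 lower.

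Of the other genes of the glycolytic steps themselves 14 of 17 were measured, of which the 5 named above rose, pgam1b fell and 8 were not called, with a median of 0.12. Among these 6 calls, those of gpib, aldoab, pgam2 and pgam1b stayed whichever array was left out. The call of pgam2 was lost under cyclic loess and quantile normalization. That of aldoaa, whose adjusted p was 0.0486 (limma), stayed in 1 of 6 such fits and that of pgam1a in 3 of 6.

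At the entry and control of glycolysis 14 of 26 genes were measured, 4 fell and 2 rose, with a median of 0.11. The hexokinase gene hk1 fell by its brightest probe set from 1123 ± 51.8 to 726 ± 28.1 (SD, n = 3), a log2 change of -0.63 ± 0.0837 with an adjusted p of 7.3e-04 (limma). Its other probe sets changed by 0.02 and 0.03 and were not called, and the identifier of the brightest (ending in s_at) marks probes that several genes may share. The neuronal-type glucose transporter gene slc2a3a fell from 320 ± 44.3 to 207 ± 14.7, a log2 change of -0.62 ± 0.114. Of the kinases that set the level of the activator of phosphofructokinase, pfkfb3 changed by -0.59 ± 0.149 and pfkfb4b by -0.44 ± 0.140. A dimmer probe set of pfkfb3 changed by 0.25 and was not called. The gene of the opposing phosphatase, tigarb, rose by 0.32 ± 0.0992 and the muscle phosphofructokinase gene pfkma by 0.27 ± 0.0878, each still called in 2 of 6 fits with 1 array left out. Of the 4 that fell, hk1 and slc2a3a stayed called in all 6, pfkfb3 in 4 and pfkfb4b in 2. The calls of tigarb, pfkma and pfkfb4b were lost under cyclic loess and quantile normalization. That of pfkfb4b, whose groups overlapped, was also lost under ribosomal centring.

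Genes for what becomes of pyruvate and lactate went both ways. Of 36 listed 22 were measured, 4 rose and 4 fell, with a median of -0.00. The genes pdha1a and dldh, of the pyruvate dehydrogenase complex, fell by 0.79 and 0.75 on the log2 scale, from 752 ± 178 to 430 ± 38.6 (SD, n = 3) and from a mean of 191 to 114. The genes of other parts of the complex, pdhb, dlat and pdhx, changed by -0.01, 0.06 and 0.14 and were not called, and the second probe set of pdha1a changed by 0.02. The mitochondrial aminotransferase gene got2a changed by -0.67 ± 0.106 and the malic enzyme gene me3 by -0.40 ± 0.0874, both lower. The pyruvate carboxylase genes pcxa and pcxb rose by 0.63 ± 0.0954 and 0.25 ± 0.0825, the malic enzyme gene me1 by 0.41 ± 0.115 and the malate dehydrogenase gene mdh2 by 0.37 ± 0.106. The second probe set of me1 changed by 0.14 and was not called. The probe set of pcxb was dim, with a retina mean of 12.6, and was not called after cyclic loess or quantile normalization. The call of me1 was lost under both as well. The lactate carrier genes slc16a1b and slc16a3b changed by 0.08 ± 0.0876 and 0.02 ± 0.122, and neither was called. The brighter probe set of their chaperone bsg, basigin, changed by -0.23 ± 0.0847 (limma, adjusted p = 0.0585) and the dimmer one by 0.25 ± 0.0927 (0.0645), so its sign depended on the probe set. Of the 8 called, pdha1a, dldh, got2a, me3 and pcxa stayed called whichever array was left out, and me1, mdh2 and pcxb in 2, 1 and 1 of 6 such fits.

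Gluconeogenesis runs the pathway in reverse. Of its 9 listed genes 5 were measured, 3 rose and none fell, with a median of 0.25. Among all named genes 19.4% were called higher and 17.0% lower, and in the dim class of all probe sets 19.6% and 4.04%. The bisphosphatase genes fbp1b and fbp1a rose by 0.38 ± 0.0992 and 0.25 ± 0.0809, and the mitochondrial carboxykinase gene pck2 by 0.33 ± 0.0974. These are dim probe sets, with retina means of 34.4, 15.2 and 20.7, and 0 of the 3 were called after cyclic loess or quantile normalization.

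In the pentose phosphate pathway, which draws glucose phosphate off to make NADPH and ribose, 6 of 12 genes were measured. The transaldolase gene taldo1 rose from 3858 ± 373 to 4936 ± 122 (SD, n = 3), a log2 change of 0.36 ± 0.0941. The ribose phosphate kinase gene prps1b and the transketolase gene tktb fell, each by 0.43 on the log2 scale. The median was -0.17. The call of prps1b stayed whichever array was left out, that of taldo1 was lost without retina with RPE replicate 1, and that of tktb stayed in 2 of 6 fits. The tktb call was also lost under cyclic loess and quantile normalization. As for hk1, the identifier of the tktb probe set ends in s_at, so several genes may share its probes.

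The branches to serine, glycerol and glycogen held the gene of these lists that rose most. Of 24 genes 11 were measured, 5 rose and none fell, with a median of 0.25. The glycerol phosphate dehydrogenase gene gpd1b read 37.3, 40.6 and 37.2 in retina and 94.7, 129 and 96.5 with RPE. The groups were far apart, and the change was 2.75-fold (limma, adjusted p = 9.5e-05). Its relative gpd1c rose by 0.40 ± 0.106 from a retina mean of 18.4. Of the genes that lead to glycogen, the phosphoglucomutase gene pgm1 rose by 0.65 ± 0.0812 and ugp2b, which makes UDP-glucose, by 0.61 ± 0.132. The serine synthesis gene phgdh rose from 918 ± 69.1 to 1351 ± 52.2 (SD, n = 3), a log2 change of 0.56 ± 0.0897. The second probe set of pgm1 changed by -0.03 and that of ugp2b by 0.16, and neither was called. All 5 except gpd1c stayed called whichever array was left out. The call of gpd1c was also lost under cyclic loess and quantile normalization.

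Hypoxia factors and Myc proteins are known regulators of glycolytic genes. Of 25 genes in this list 17 were measured, 4 fell and 2 rose, with a median of 0.01. The Myc genes myca, mycn and mycb fell by 0.87, 0.66 and 0.61 on the log2 scale, from 208 ± 33.9 to 113 ± 14.5, from 511 ± 58.7 to 323 ± 14.8 and from 297 ± 35.8 to 193 ± 10.9 (SD, n = 3). The second probe set of mycn changed by 0.34 and was not called. The oxygen-regulated factor gene hif1ab fell from 1413 ± 117 to 1011 ± 74.2, a log2 change of -0.48 ± 0.0977. The partner gene arnt2 rose by 0.56 ± 0.103 and the related factor gene epas1b by 0.43 ± 0.119, the latter from a retina mean of 17.3 and called in 3 of 6 fits with 1 array left out. The second probe set of arnt2 changed by 0.05 and was not called. The other 5 called genes stayed called in all 6. After cyclic loess or quantile normalization epas1b was not called.

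**Figure D5:**
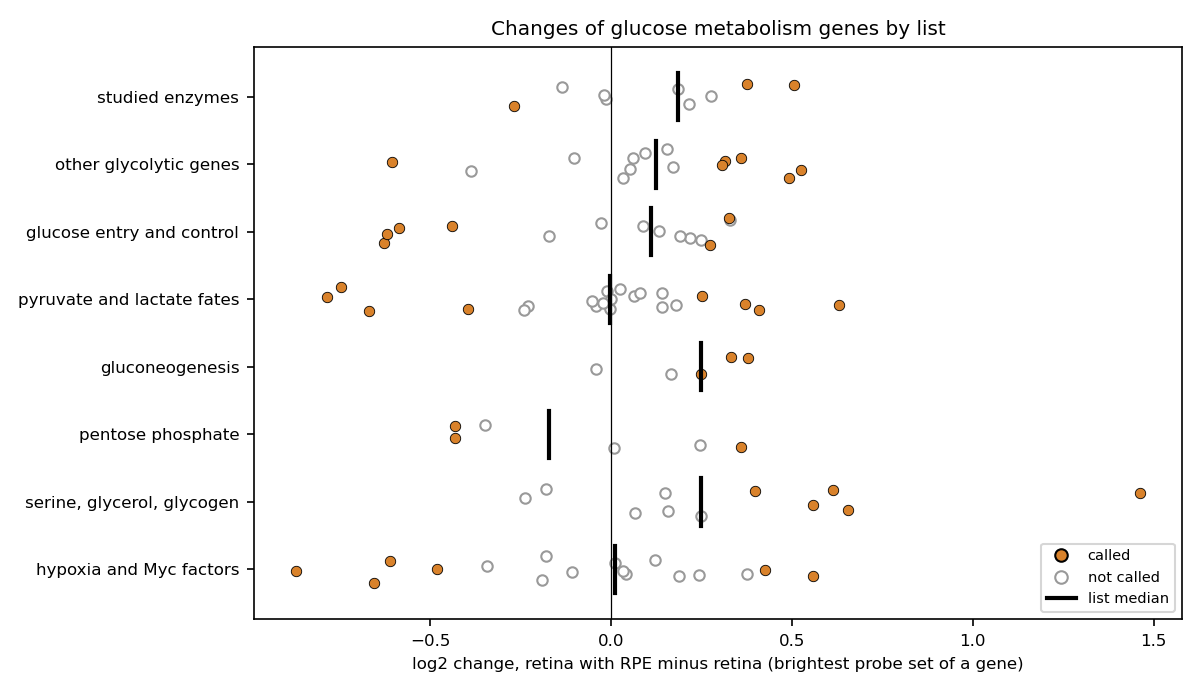
Log2 change of each measured gene (brightest probe set), retina with RPE minus retina, for the studied enzymes and the 7 lists; filled points are called and the black bar is the median of the list. The studied enzymes span -0.27 to 0.50 with a median of 0.19, and gpd1b at 1.46 is the point farthest to the right.

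Markers of other cells were counted in the same way, against 19.4% higher and 17.0% lower among all named genes. Of 18 measured mesenchyme and cartilage markers 14 rose, with mean log2 levels of 5.27 to 5.39 in retina and 5.84 to 6.17 with RPE. Of 11 neural crest and pigment cell markers 8 rose and 1 fell, with mean log2 levels of 6.44 to 6.63 and 7.44 to 7.60. Of 6 endothelial markers 4 rose and 1 fell. Most markers of the other types were not called: of 9 leukocyte markers 4 rose, of 10 erythrocyte markers 3 rose and 1 fell, of 13 skin and cornea markers 4 rose and 1 fell, and of 4 lens markers 1 rose. The mean log2 level of the retina markers was 8.31 to 8.48 in retina and 8.21 to 8.31 with RPE. The part of these cells in the changes of aldocb, tpi1b and pkma was not tested.

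The named genes most like aldocb over the 6 arrays, by Pearson r of the log2 values with its brighter probe set, were cyp2k8 (r = 0.997), guca1aa (0.991), rpusd1 (0.989), cd151l (0.986) and frs2b (0.976). None of the 5 was itself called. The brightest of them, frs2b, read 347, 256 and 290.2 in retina and 358, 387 and 351 with RPE, with retina replicate 1 the highest retina array, as for aldocb. The others were dim, and the values of cyp2k8 ran from 11.8 to 14.3 and those of guca1aa from 10.4 to 11.6 over the 6 arrays. In all 35 probe sets had r over 0.95, and all points come from the same 6 arrays.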

How the data were processed

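The deposited table gives each probe set a linear intensity on each array, made by the authors with RMA and the affy package in R 2.2.0, per the submitters' processing notes. For the order of steps, and for other arrays normalized along, the answer was not given in the sources used here. That the scale is linear was judged from the range of the values. Of 15617 probe sets, 115 controls were left out and 15502 tested. The annotation listed 10795 with 1 gene, 135 with several and 4572 with none; 10711 identifiers were found in the current gene list and 1 symbol changed. Intensities were log2 transformed and compared with lmFit and eBayes of limma 3.58.1 under R 4.3.3, by 2-sided tests adjusted after Benjamini-Hochberg and called at an adjusted p under 0.05. Intensities are means ± SD over 3 pools, and errors of log2 changes are limma standard errors. No detection call was used, so dim probe sets were tested like the others, whether or not their transcripts were present. Changes of dim probe sets may be understated. The fit was also run on simulated data with independent noise and no array or brightness effects. That run checks the calculation only.

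All member probe sets were named, with the called genes of each list, up to 6 in each direction, and the paralogs. The genes most like the called member with the largest change were the 5 with the highest Pearson r. Single genes outside this rule (other probe sets and subunits, lactate carriers, muscle markers) were chosen after their values were seen. The members and lists were chosen with earlier results of these data known. Alternatives were a replicate block, cyclic loess, quantile normalization, ribosomal centring, a filter leaving out the dimmest of 3 equal classes, trend and robust moderation, log2(value + 16), an adjusted p under 0.01, control probe sets kept, other probe sets per gene and leaving out each array. The replicate numbers were not taken as pairs. Figures were drawn with matplotlib 3.10.9.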

Additional observations from a re-analysis of the deposited data

How the results depend on the processing

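All 3 glycolytic calls had adjusted p between 0.0395 and 0.0446, and under an adjusted p of 0.01 the counts became 0 higher and 0 lower. With log2(value + 16) none was higher; with ribosomal centring 5 were higher and 0 lower. None was lower under cyclic loess, quantile normalization, the dim filter or trend and robust moderation. With 1 array left out there were 0 to 2 higher and 0 to 1 lower. Under cyclic loess the brighter aldocb probe set changed by 0.65 (limma, adjusted p = 0.0158) and tpi1b by 0.51 (0.0117). Under quantile normalization these changes were 0.65 (limma, adjusted p = 0.0138) and 0.46 (0.0178). The dimmer aldocb probe set was called under neither. Over all probe sets the higher calls were 1854 with the dim filter, 1338 at 0.01 and 1805 to 2725 with 1 array left out, and the lower calls 1406 with centring, 1328 at 0.01 and 1634 to 2379. The 7 lists had 14 higher under cyclic loess, 14 with the dim filter, 9 at 0.01, 10 with S probe sets and 11 to 22 with 1 array left out, and 6 lower with S probe sets and 12 to 17 with 1 array left out. For eno1a the change was 0.13 under cyclic loess, 0.15 under quantile normalization and 0.0775 with centring, and -0.0781 to 0.0506 with 1 array left out; for gpia it was 0.11, 0.11 and 0.0714, and -0.0999 to 0.0463. The difference of aldocb from aldoaa ran from -0.0101 to 0.43 and from aldoab from -0.16 to 0.20 when arrays were left out. A stricter threshold lowers counts by construction. The dim filter left 10334 probe sets and the S probe sets 56 genes of the lists, so those counts come from smaller totals. The fits with 1 array left out rest on fewer arrays. For the other settings the cause was not tested.

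With the replicate block the glycolytic counts stayed at 2 higher and 1 lower, with adjusted p of 0.0295 for aldocb, 0.0182 for tpi1b and 0.0444 for pkma, and 3144 higher and 2642 lower probe sets. Deviations of arrays with the same number correlated at 0.17, 0.08 and 0.13, each array best with its own number, a hint from the data and not from the design. Deviations cancel out within a group, so these matches are not independent of each other, and they were not tested.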

Other observations

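Different probe sets of 1 gene often gave different answers in these lists. Of 20 genes with several probe sets, 12 had some but not all called, none had calls in both directions, and 10 had changes of both signs. The glycerol phosphate dehydrogenase relative gpd1l changed by -0.24 in its brighter probe set, which was not called, and by 0.43 in its dimmer one, which was. The secreted binding protein gene igfbp1a changed by 0.19 in its brighter probe set and by 0.94 in its dimmer one, of which only the latter was called. The liver phosphofructokinase gene pfklb rose by 0.42 in 1 of 3 probe sets, and the others changed by 0.22 and 0.11 without a call.

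The glycogen phosphorylase gene pygmb differed more within the retina pools than between the groups. Its brighter probe set read 413 in retina replicate 1 and 207 and 199.6 in the others, and its dimmer probe set read 165, 75.2 and 88.9. With RPE the brighter one read 240.1, 286 and 171 and the dimmer one 122, 145 and 150.3. Neither was called.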
